A study of Homo sapiens with 10 samples.

Results

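The genes described here are the replication-dependent histone genes of a human epithelial cell line, followed after knockdown of NEMP1 on soft and stiff substrates. They were chosen by name as the clustered genes for the histones H2A, H2B, H3 and H4 and the linker histone genes H1-1 to H1-5. Of 68 such genes in the deposited table, 45 had at least 10 estimated counts summed over all libraries, out of 40664 genes in all. They comprise 5 H1, 13 H2A, 12 H2B, 5 H3 and 10 H4 genes, of which 35 lie on chromosome 6, 9 on chromosome 1 and 1 on chromosome 12. Of the 23 genes under the minimum, 11 had no count at all, and the highest had a total of 9 (H2AC14). The lowest total among the members was 11 (H2AC16).

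The cells were hTERT RPE-1, a retinal pigment epithelial line immortalised with telomerase, and the labels name total RNA depleted of ribosomal RNA. There were 4 groups: cells treated with siNemp1, an siRNA against NEMP1 (n = 2), and control cells (n = 2) at 10 kPa, and siNemp1 cells (n = 3) and control cells (n = 3) at 120 kPa. The lower value marks the soft substrate and the higher value the stiff one. NEMP1 encodes a protein of the inner nuclear membrane. What the control cells received is not stated in the labels, and all libraries come from a single line, so the p-values measure the spread between these cultures or preparations only.

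Replication-dependent histone genes supply the histones that package newly made DNA, so their transcripts are made mainly in S phase. Most of these transcripts end in a conserved stem-loop rather than a poly(A) tail, and stem-loop binding protein (SLBP) with the U7 small nuclear RNP directs their cleavage. Several family members can also give polyadenylated transcripts, most often in cells that have left the cell cycle. The core histone proteins made from different gene copies of a family are identical or nearly so.

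Several short RNAs that carry no poly(A) tail were low in these libraries, although the labels describe random priming. The genes given here were chosen after the data were seen. RN7SK, an RNA polymerase III transcript, was at 0.181 to 0.908 CPM (counts relative to library size, with totals scaled by edgeR's TMM factors). RN7SL1 was at 0 to 0.983 CPM, RN7SL2 at 0.148 to 1.16 CPM and RMRP at no more than 0.0983 CPM. The U7 RNA gene RNU7-1, RNU4-1 and the telomerase RNA TERC were at 0 in all 10 libraries, and SNORD3A was at most 0.108 CPM. Longer RNAs without a poly(A) tail were not looked at for this. How far the histone levels below cover transcripts without a poly(A) tail was not tested.

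The letters of the conserved histone stem-loop, arms and T-rich loop, were found in annotated GENCODE 29 transcripts of 25 of the 45 members, on the transcript's own strand. Among the 83129 coding transcripts searched, 39 of other genes also held them. The members shown here are those on which the results below turn, with the matched letters in capitals and 5 flanking bases on either side.
H4C14: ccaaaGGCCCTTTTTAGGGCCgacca
H4C15: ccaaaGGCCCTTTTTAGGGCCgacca
H2AC18: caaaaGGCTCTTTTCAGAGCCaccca
H2AC19: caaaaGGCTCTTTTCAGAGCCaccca
H2AC6: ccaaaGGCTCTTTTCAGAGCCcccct
H2BC21: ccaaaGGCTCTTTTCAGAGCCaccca
H2BC4: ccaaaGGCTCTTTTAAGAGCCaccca
H2AC25: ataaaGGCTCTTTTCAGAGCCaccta
The 7 H4 members with a match all carried the arm GGCCC, and the other 18 members with a match all carried GGCTC (7 H2A, 10 H2B and 1 H3). H4C14 and H4C15 have the same letters throughout, as do H2AC18 and H2AC19. No match was found in the annotated transcripts of H4C3, H1-2 or H1-4, which says only that these letters are not in those annotated transcripts.

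The libraries held about 17949800 to 23797700 estimated counts, and NEMP1 was lower in every siNemp1 library. NEMP1 stood at 8.22 and 7.63 CPM in siNemp1 cells at 10 kPa, against 14.1 and 17.3 CPM in control cells. At 120 kPa it stood at 7.52, 6.70 and 4.11 CPM in siNemp1 cells, against 18.3, 14.05 and 14.07 CPM in control cells. Of 10 listed pigment epithelium markers, RPE65 and RLBP1 were at or near 0 (at most 0.0978 and 0.0842 CPM). TYR, SERPINF1 and PMEL were low (at most 0.629, 1.40 and 3.74 CPM). BEST1 reached 57.5 to 91.7 CPM, MITF 81.1 to 154 CPM and OTX2 18.4 to 29.7 CPM. The epithelial keratins KRT8 and KRT18 reached 755 to 1205 CPM and 500 to 772 CPM. The summed level of 8 blood and endothelial markers was 2.60 to 4.63 CPM.

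The histone genes were a small part of each library and were highest in the stiff-substrate libraries numbered 3. They held 3086 to 9196 estimated counts per library, or 0.0163% to 0.0417% of the total. Their summed level was 175 and 173 CPM in siNemp1 cells at 10 kPa, against 161 and 166 CPM in control cells. At 120 kPa the sum was 229, 248 and 398 CPM in siNemp1 cells, against 165, 181 and 309 CPM in control cells. The siNemp1 library was the higher of each same-numbered pair, by ratios of 1.39, 1.37 and 1.29 at 120 kPa and of 1.09 and 1.04 at 10 kPa. The ranges overlapped at 120 kPa, because the control library numbered 3 lay above the first pair of siNemp1 libraries. In bulk RNA, a change in the share of cells in S phase and a change in transcript per cell cannot be told apart.

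**Figure D1:**
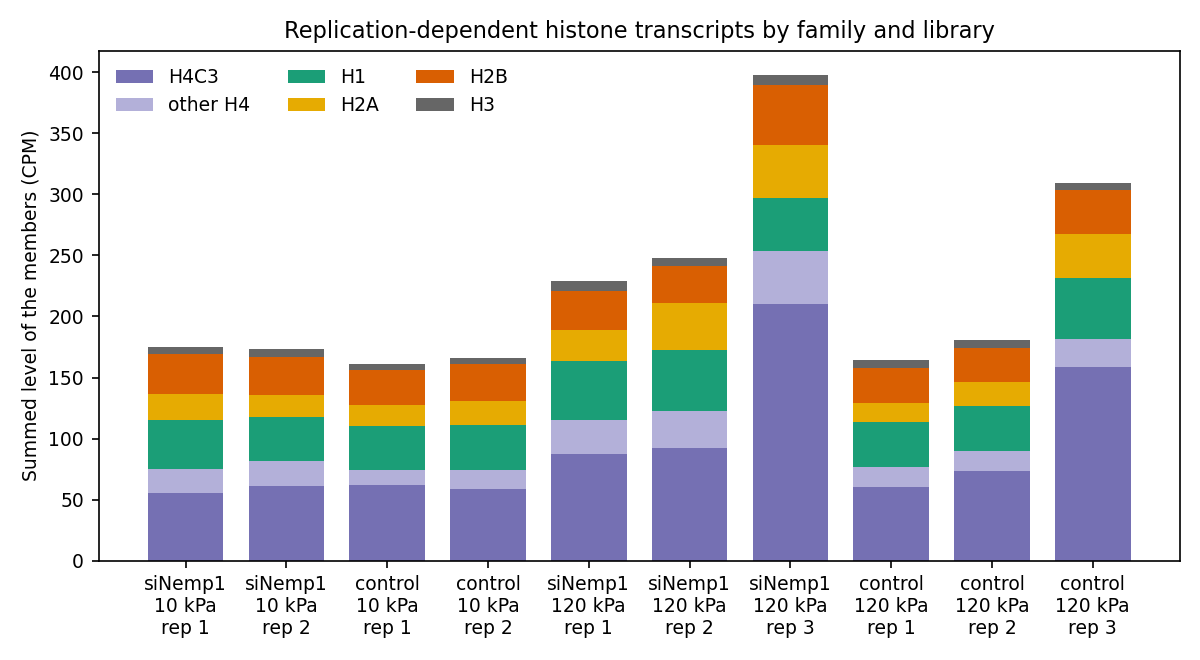
Summed TMM-scaled level (CPM, vertical axis) of the 45 members in each of the 10 libraries, stacked by family with H4C3 shown apart from the other H4 genes; no error bar is drawn because each bar is a single library. The bars of the 120 kPa libraries numbered 3 (398 CPM in siNemp1 cells and 309 CPM in control cells) stand above all others, and most of that height is H4C3.

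H4C3, one of the genes for histone H4, held 31.6% to 52.9% of the members' estimated counts, a share that is not corrected for transcript length. Its gene lies at chr6:26103933-26104337 (GRCh38), and no 31-base stretch of its annotated transcript occurred in another gene's transcript, so its counts are not divided among copies. H4C3 stood at 55.4 and 60.9 CPM in siNemp1 cells at 10 kPa, against 61.6 and 59.0 CPM in control cells. The stiff-substrate values were 87.2, 92.0 and 210.5 CPM in siNemp1 cells, against 60.1, 73.3 and 158.5 CPM in control cells. The siNemp1 and control ranges overlapped on both substrates, and the libraries numbered 3 were far above the others in both stiff groups. H4C3 averaged 129.9 ± 69.9 CPM in siNemp1 cells and 97.3 ± 53.4 CPM in control cells at 120 kPa (SD, n = 3 each).

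The siNemp1 effect on H4C3 at 120 kPa depended on whether same-numbered libraries were compared with each other. With one mean per group, the log2 fold change was 0.42 ± 0.40 (SE) with an adjusted p of 0.64 in edgeR's quasi-likelihood test. With the replicate number as a block, it was 0.42 ± 0.09 with an adjusted p of 0.021 in the same test. The siNemp1 library was higher in each of the 3 pairs, by ratios of 1.45, 1.25 and 1.33. Without the siNemp1 library numbered 3 the unblocked value was -0.15, and the blocked call was lost without the second pair (0.46, adjusted p = 0.084 in edgeR) or the third (0.39, adjusted p = 0.069 in edgeR).

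H4C14 and H4C15 are near-identical H4 genes on chromosome 1, and their summed level was higher in siNemp1 cells in each pair on both substrates. H4C14 lies at chr1:149832657-149833052 and the annotated interval of H4C15 is chr1:149844488-149861240 (GRCh38). Every 31-base stretch of the H4C14 transcript, and 95.2% of those of H4C15, occurred in the other gene, so the division of counts between them is uncertain and their sum is the firmer value. Together they stood at 16.7 and 18.7 CPM in siNemp1 cells at 10 kPa, against 10.6 and 12.3 CPM in control cells. At 120 kPa they stood at 24.9, 27.2 and 37.5 CPM in siNemp1 cells, against 14.5, 13.8 and 18.95 CPM in control cells. Neither substrate showed any overlap between siNemp1 and control libraries. The ratios within pairs were 1.71, 1.97 and 1.98 at 120 kPa and 1.58 and 1.52 at 10 kPa.

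For the summed pair at 120 kPa, the log2 fold change was 0.92 ± 0.19 without the block (edgeR adjusted p = 0.062) and 0.91 ± 0.12 with it (edgeR adjusted p = 0.0056). At 10 kPa it was 0.63 ± 0.23 without the block (edgeR adjusted p = 0.80). Averaged over both substrates it was 0.78 ± 0.15, which passed the threshold of 0.05 (edgeR adjusted p = 0.047), and 0.77 ± 0.09 with the block (edgeR adjusted p = 0.0045). The blocked fit with summed copies was added after the data were seen. Its average also ties same-numbered soft-substrate libraries, which did not deviate together over all genes (correlation 0.0171). The change on stiff relative to soft substrate was 0.75 ± 0.21 in siNemp1 cells (edgeR adjusted p = 0.31) and 0.46 ± 0.21 in control cells (edgeR adjusted p = 0.99).

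Taken singly, H4C14 stood at 11.995 and 13.04 CPM in siNemp1 cells at 10 kPa, against 4.64 and 7.09 CPM in control cells. At 120 kPa it stood at 16.1, 15.4 and 25.1 CPM in siNemp1 cells, against 5.49, 7.82 and 13.999 CPM in control cells. The groups did not overlap on either substrate. Its log2 fold change at 120 kPa was 1.05 ± 0.32 without the block (edgeR adjusted p = 0.14) and 1.12 ± 0.17 with it (edgeR adjusted p = 0.0077). The blocked call was kept without pair 1 (0.90, edgeR adjusted p = 0.0084) and without pair 3 (1.23, edgeR adjusted p = 0.016), and lost without pair 2 (1.16, edgeR adjusted p = 0.072). H4C15 stood at 4.74 and 5.69 CPM in siNemp1 cells at 10 kPa, against 5.95 and 5.21 CPM in control cells. On the stiff substrate it stood at 8.79, 11.8 and 12.3 CPM in siNemp1 cells, against 9.04, 5.98 and 4.96 CPM in control cells. H4C15 overlapped on both substrates, and its blocked log2 fold change at 120 kPa was 0.74 ± 0.24 (edgeR adjusted p = 0.081).

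**Figure D2:**
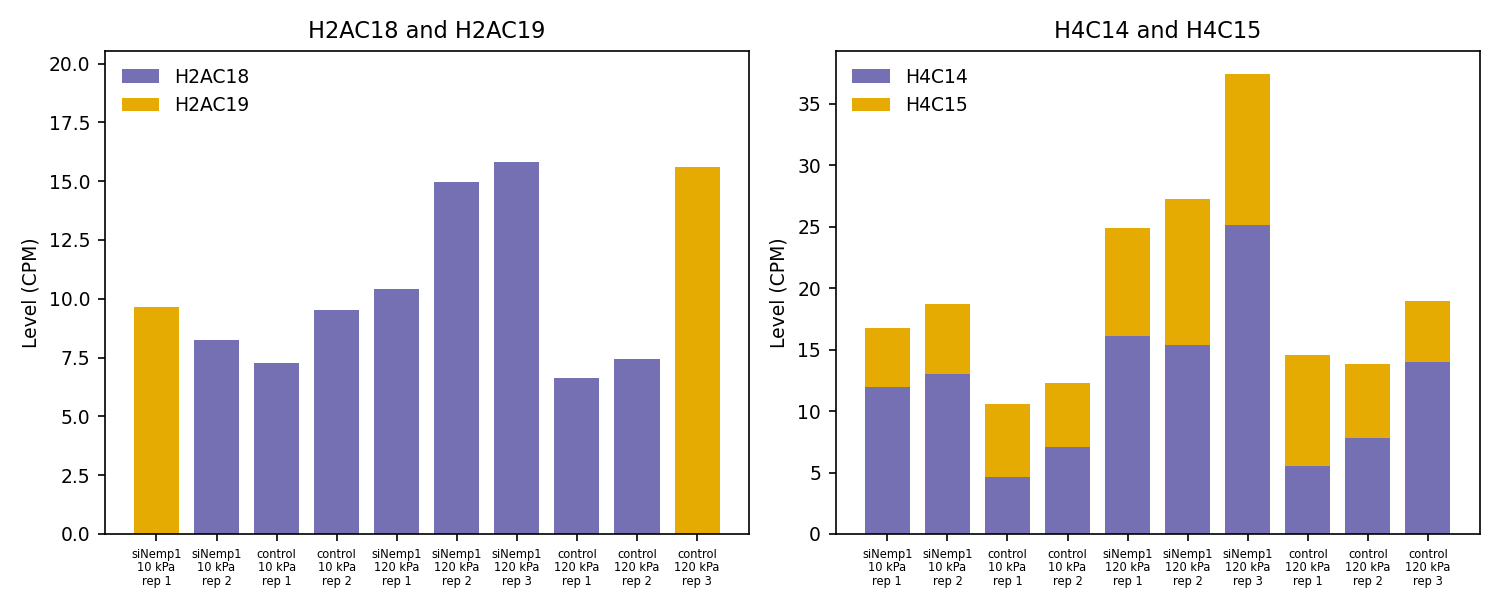
TMM-scaled levels (CPM, vertical axes) of the copy pairs H2AC18 and H2AC19 (left) and H4C14 and H4C15 (right) in each library, stacked within a bar; each bar is a single library. H2AC18 and H2AC19 are never both above 0 in a library, whereas H4C14 and H4C15 share every bar and their sum is higher in each siNemp1 library than in the control library of the same number and substrate.

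H2AC18 and H2AC19, which encode histone H2A, lie close together at chr1:149842218-149842750 and chr1:149851061-149851594 (GRCh38). All 31-base stretches of the H2AC18 transcript occurred in another member, as did 97.2% of those of H2AC19. In every library the deposited counts were given wholly to one copy. H2AC19 held 230 estimated counts in the siNemp1 library numbered 1 at 10 kPa and 371 in the control library numbered 3 at 120 kPa, where H2AC18 was at 0, and it was at 0 in the other 8 libraries. No fold change is given for either copy alone, and a call on H2AC19 follows this division and not a level of the pair.

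The sum of H2AC18 and H2AC19 was 9.64 and 8.23 CPM in siNemp1 cells at 10 kPa, against 7.27 and 9.54 CPM in control cells. At 120 kPa the sum was 10.4, 14.99 and 15.8 CPM in siNemp1 cells, against 6.65, 7.43 and 15.6 CPM in control cells. The groups overlapped on both substrates, and the third pair at 120 kPa was nearly equal, with a ratio of 1.01. The log2 fold change at 120 kPa was 0.47 ± 0.31 without the block (edgeR adjusted p = 0.46) and 0.55 ± 0.20 with it (edgeR adjusted p = 0.12).

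Across the tested members at 120 kPa, most fitted values were above 0 and few members passed a test. Of the 45 members, 29 passed the filter on low counts (4 H1, 8 H2A, 8 H2B, 4 H3 and 5 H4). The other 16 had totals of 11 to 77 estimated counts and summed to 1.502 to 3.59 CPM. H2AC20 and H2AC25 reached the filter's level only in siNemp1 libraries at 120 kPa, so they had to differ, and a call on H2AC25 is not read as a result. With one mean per group, 0 of the 29 members had an adjusted p under 0.05, against 0% of the 13990 genes tested. In that edgeR fit 5 members, H2AC25 among them, had an unadjusted p under 0.05, and 17.2% of all genes did. DESeq2, which gave an adjusted p to 9 members, called 1, H4C14 (1.03 ± 0.32, DESeq2 adjusted p = 0.029), against 6.83% of all genes (4.85% higher). That call is on a single copy, whose division from H4C15 is uncertain. With the replicate block, 4 members were called, against 8.75% of all genes. It called 3 higher (H4C3, H4C14 and H2AC25), against 6.24% of all genes. The block called 1 member lower, H2AC19, against 2.51% of all genes, and that call is the division of copies described above. With copies summed, the block called 3 members higher (6.24% of all genes) and 0 lower (2.49%), and 8 of 27 had an unadjusted edgeR p under 0.05, as had 25.02% of all genes. A blocked fit of the 6 stiff libraries alone called 4 of 23 members, all higher (H4C3, H4C14, H2AC6 and H2AC25), against 5.98% of all genes.

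The fold changes of 25 of the 29 members were positive in the unblocked fit, against 50.8% of all genes. Their median log2 fold change was 0.48, against 0.0064 over all genes tested; these values describe the members that passed the filter only. With the block the median was 0.42. Within pairs, 24, 20 and 22 of the 29 members were higher in the siNemp1 library of pairs 1, 2 and 3. Of all genes, 54.2%, 49.4% and 50.1% were higher in these pairs. The 29 include H2AC20 and H2AC25 and count near-identical copies singly. They also include H2BC13, which reached the filter's level only in siNemp1 libraries, 1 on each substrate, so its direction is not read as a result. The siNemp1 and control ranges did not overlap for 5 members, all higher in siNemp1 cells (H2AC17, H2AC18, H2AC25, H3C10 and H4C14), against 10.9% of all genes. No member was lower without overlap, against 6.95% of all genes. Of these 5, H2AC18 separates only through the control library where it is listed at 0. H2AC25 passed the filter only through the siNemp1 libraries at 120 kPa, so its separation is not read as a result.

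**Figure D3:**
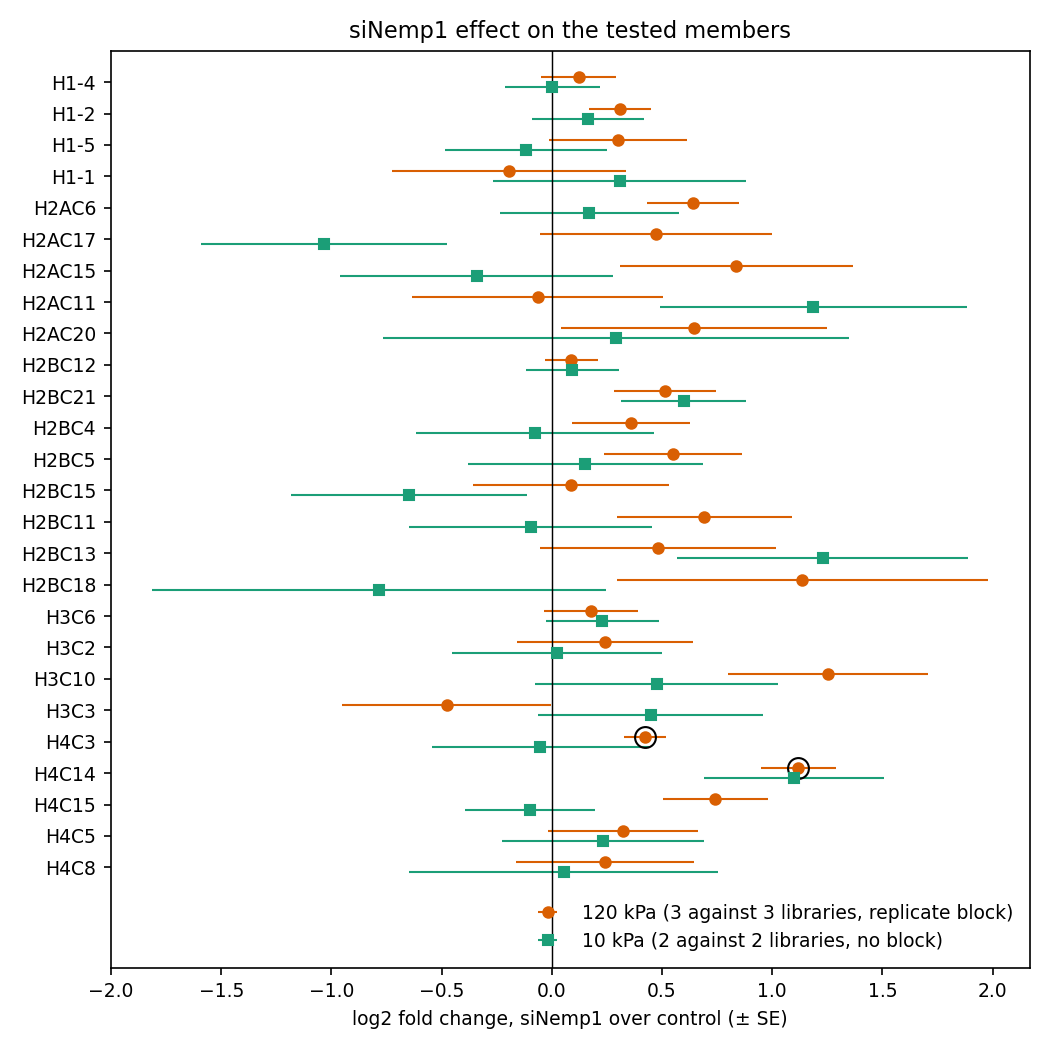
log2 fold change of siNemp1 over control (horizontal axis, ± SE) for 26 tested members, ordered by family and by mean level, at 120 kPa (circles, replicate number as a block) and 10 kPa (squares, no block); rings mark an adjusted p under 0.05 in edgeR at 120 kPa. H2AC18, H2AC19 and H2AC25 are left out because some groups are at or near 0. Most circles lie right of 0, and the ringed members are H4C3 at 0.42 and H4C14 at 1.12. The division of counts between H4C14 and H4C15 is uncertain. H2AC20 and H2BC13 reached the filter's level only in siNemp1 libraries.

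Of the linker histone genes, H1-4 and H1-2 had the most counts. H1-2, whose protein binds linker DNA between nucleosomes, stood at 14.7 and 14.5 CPM in siNemp1 cells at 10 kPa, against 14.2 and 11.9 CPM in control cells. At 120 kPa it stood at 19.96, 19.2 and 23.96 CPM in siNemp1 cells, against 13.4, 15.1 and 23.5 CPM in control cells. The stiff groups overlapped only through the control library numbered 3, and the blocked log2 fold change was 0.31 ± 0.14 (edgeR adjusted p = 0.20). H1-4, of the same linker family, stood at 22.5 and 19.1 CPM in siNemp1 cells at 10 kPa, against 19.5 and 22.1 CPM in control cells. On the stiff substrate it stood at 25.4, 27.7 and 17.2 CPM in siNemp1 cells, against 20.6, 19.8 and 23.1 CPM in control cells. H1-4 overlapped on both substrates, and the siNemp1 library numbered 3, which was the highest for H4C3, was the lowest of all for H1-4.

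H2AC6, an H2A gene for which polyadenylated transcripts are known, stood at 9.60 and 7.47 CPM in siNemp1 cells at 10 kPa, against 7.23 and 7.98 CPM in control cells. The stiff-substrate values were 11.6, 19.5 and 21.9 CPM in siNemp1 cells, against 7.197, 10.2 and 17.9 CPM in control cells. It was higher in siNemp1 cells in every pair at 120 kPa, although the ranges overlapped. The log2 fold change was 0.58 ± 0.32 without the block (edgeR adjusted p = 0.38) and 0.64 ± 0.21 with it (edgeR adjusted p = 0.082). In a blocked fit of the 6 stiff libraries alone it was 0.60 ± 0.15 and was called (edgeR adjusted p = 0.042).

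H2AC25 (chr1:228457364-228457873, GRCh38) encodes histone H2A outside the main clusters and had very few counts. It held 11.6, 13.2 and 20.03 estimated counts in siNemp1 cells at 120 kPa, against 0, 1.22 and 0 in control cells. At 10 kPa it held 0 and 1.34 estimated counts in siNemp1 cells, against 4.51 and 4.34 in control cells. The groups did not overlap on either substrate, and the order was opposite between them. The rounded counts at 120 kPa were 45 against 1, a ratio of 45.1 with a 95% counting interval of 7.68 to 1818. At 10 kPa they were 1 against 9, a ratio of 0.103 with an interval of 0.00234 to 0.740. These intervals cover counting error only, and 0.372% of all genes tested had this pair of opposite separations. H2AC25 is a description only, since it passed the filter through the siNemp1 libraries at 120 kPa alone.

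Among the H2B genes, H2BC21 was higher in siNemp1 cells at 10 kPa, where it stood at 7.50 and 6.66 CPM, against 4.44 and 4.94 CPM in control cells. At 120 kPa it stood at 6.19, 7.13 and 9.95 CPM in siNemp1 cells, against 6.92, 4.73 and 4.54 CPM in control cells. The groups were apart at 10 kPa and overlapped at 120 kPa, where the first pair ran the other way. Its log2 fold change averaged over both substrates was 0.56 ± 0.18 without the block (edgeR adjusted p = 0.13). H2BC12, the H2B gene with the most counts, stood at 17.1 and 18.6 CPM in siNemp1 cells at 10 kPa, against 16.6 and 16.9 CPM in control cells. On the stiff substrate it stood at 17.8, 16.1 and 24.1 CPM in siNemp1 cells, against 16.4, 16.6 and 21.2 CPM in control cells. H2BC12 overlapped at 120 kPa, with a blocked log2 fold change of 0.09 ± 0.12 (edgeR adjusted p = 0.71), and 86.3% of its 31-base stretches occurred in other genes' transcripts.

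H2BC4 was level in most libraries and high in 1. It stood at 2.56 and 2.02 CPM in siNemp1 cells at 10 kPa, against 2.68 and 2.17 CPM in control cells. The stiff-substrate values were 2.02, 2.25 and 6.66 CPM in siNemp1 cells, against 2.08, 2.21 and 3.42 CPM in control cells. The siNemp1 and control libraries numbered 3 were the highest of their groups. H3C6, the histone H3 gene with the most counts, stood at 3.90 and 3.84 CPM in siNemp1 cells at 10 kPa, against 3.31 and 3.29 CPM in control cells. At 120 kPa it stood at 4.62, 3.57 and 4.84 CPM in siNemp1 cells, against 4.53, 3.86 and 3.20 CPM in control cells. H3C6 overlapped at 120 kPa, and the libraries numbered 3 did not stand apart for it. H3C10, another H3 gene, named after its values were seen, stood at 1.03, 0.880 and 1.95 CPM in siNemp1 cells at 120 kPa, against 0.453, 0.606 and 0.505 CPM in control cells. The groups were apart, with a blocked log2 fold change of 1.25 ± 0.45 (edgeR adjusted p = 0.11). The 17 tested members outside the 12 highest lay between 0 and 3.98 CPM in single libraries.

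**Figure D4:**
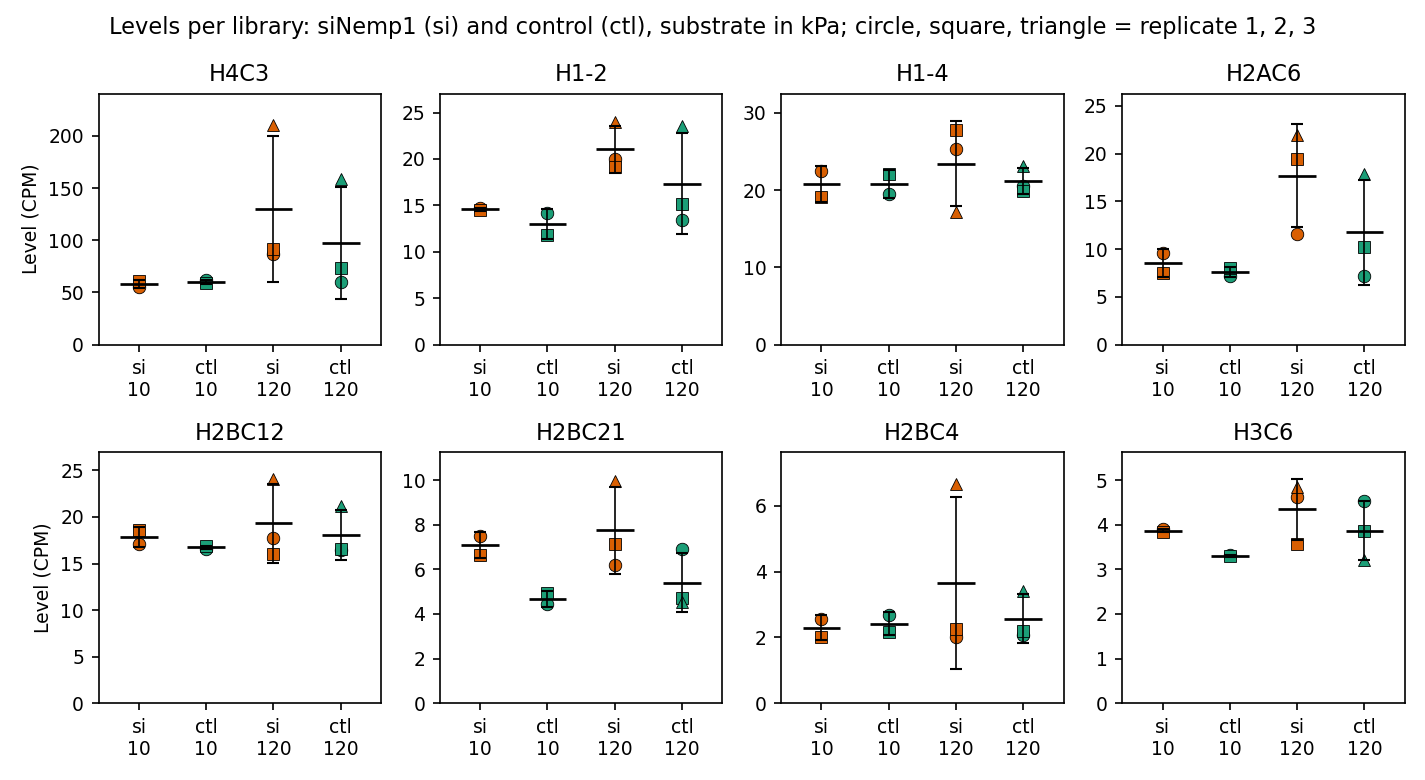
TMM-scaled level (CPM, vertical axes from 0) of 8 members in each library; circles, squares and triangles are the libraries numbered 1, 2 and 3, black lines are group means and bars are the SD (n = 2 per group at 10 kPa, n = 3 at 120 kPa). The triangles lie far above the other 120 kPa points for H4C3, but not for H3C6, and for H1-4 the siNemp1 triangle is the lowest point.

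At 10 kPa the members did not move in one direction. Their median log2 fold change was 0.09 in the unblocked fit, and 18 of 29 were positive, against 49.7% of all genes. In that edgeR fit 0 members were called, against 0% of all genes. There 2 members, H4C14 and H2AC25, had an unadjusted edgeR p under 0.05 (6.08% of all genes). H2AC25 passed the filter only through siNemp1 libraries at 120 kPa and is not read. DESeq2 called 0 of 28 (0.111% of all genes). A fit of the 4 soft-substrate libraries alone called 2 of 24 members higher, against 8.10% of all genes in that direction. They were H4C14 (1.09 ± 0.18, edgeR adjusted p = 0.00029) and H2BC21 (0.59 ± 0.19, edgeR adjusted p = 0.033). The division of counts between H4C14 and H4C15 is uncertain. In the unblocked fit of all libraries, H4C15 was at -0.10 and the sum of both at 0.63. The common dispersion, edgeR's estimate of squared variation between replicates, was 0.00423 in these 4 libraries and 0.0387 over all 10. Groups did not overlap for 8 members higher in siNemp1 cells, against 28.8% of all genes, and for 4 lower, against 28.5%. The 8 include H2BC13, also among the 18 positive members, and the 4 include H2AC25. Both reached the filter's level only in siNemp1 libraries, so their separations are not read.

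Stiff substrate was set against soft within each treatment. In siNemp1 cells the members' median log2 fold change for 120 kPa over 10 kPa was 0.53, against 0.022 over all genes, and 25 of 29 were positive. In control cells the median was 0.21, against -0.0055, and 20 of 29 were positive. In edgeR 0 members were called in siNemp1 cells (0% of all genes), where 6 had an unadjusted p under 0.05, as had 11.8% of all genes. It called 0 in control cells (0.0143% of all genes), where 2 had an unadjusted p under 0.05, as had 4.07% of all genes. The 6 included H2AC20 and H2AC25, and the 2 were H2AC17 and H2AC25. H2AC20 and H2AC25 passed the filter only through siNemp1 libraries at 120 kPa, so their p-values are not read. DESeq2 called 0 in siNemp1 cells (2.3% of all genes), where it gave an adjusted p to 1 member, and 0 of 28 in control cells (0.051%). H4C3 had a log2 fold change of 1.16 ± 0.46 in siNemp1 cells (edgeR adjusted p = 0.39) and 0.69 ± 0.46 in control cells (edgeR adjusted p = 0.99). The 10 members above all soft-substrate libraries in siNemp1 cells (18.2% of all genes) included H4C3, H4C14, H4C15, H1-2 and H2AC6. They also included H2AC20 and H2AC25, whose separation is not read because of how they passed the filter. In control cells 3 members lay above (10.4% of all genes) and 3 below (11.9%). Those above included H2AC20 and H2BC13, and those below included H2AC25. None of these reached the filter's level in a control library, so their separations are not read. The libraries numbered 3 exist only at 120 kPa, and without the siNemp1 one the H4C3 value in siNemp1 cells was 0.59.

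The siNemp1 effect at 120 kPa less that at 10 kPa had a median of 0.36 over the members and 0.030 over all genes. No member was called in edgeR without the block (0.00715% of all genes), and DESeq2 called 0 of 28 (0.0127%). Only H2AC25 had an unadjusted edgeR p under 0.05 (1.68% of all genes). It passed the filter only through siNemp1 libraries at 120 kPa, so that p is not read as a result. For H4C3 this difference was 0.47 ± 0.63, with an edgeR adjusted p of 1. For the summed H4C14 and H4C15 it was 0.29 ± 0.29, also with an edgeR adjusted p of 1. Without the siNemp1 library numbered 3 at 120 kPa the members' median was -0.059. Averaged over both substrates, 0 of 29 members were called without the block (1.29% of all genes: 0.858% higher and 0.429% lower). The block called 1 higher, H4C14 (1.12 ± 0.14, edgeR adjusted p = 0.0045), and 0 lower, against 10.8% of all genes (6.58% higher and 4.17% lower). In the unblocked edgeR fit 3 members had an unadjusted p under 0.05 (19.7% of all genes), and DESeq2 called 1 of 8, also H4C14, against 11.1% of all genes (6.78% higher).

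Members did not vary together across libraries in one pattern. Over the 10 libraries, the Pearson correlation of log2 level with that of H4C3 was 0.92 for H1-2 and 0.89 for H2AC6, and over the 8 libraries without those numbered 3 it was 0.88 and 0.84. For H2BC12 it was 0.86 over 10 libraries and -0.18 over 8, and for H2BC4 0.83 and -0.32. For H1-4 it was -0.11 and 0.72. These values share library scaling and group differences and are given as a description only.

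The 6 members for which polyadenylated transcripts are known (H1-2, H2AC6, H2BC4, H2BC5, H2BC12 and H2BC21) summed to 60.0, 65.8 and 90.6 CPM in siNemp1 cells at 120 kPa, against 47.0, 50.6 and 73.6 CPM in control cells. The sum of the other 39 members was 169, 182 and 307 CPM in siNemp1 cells, against 118, 130.0 and 236 CPM in control cells. Both sums were higher in siNemp1 cells in each pair, and both were highest in the libraries numbered 3. None of the 6 was called with the block at 120 kPa, where 8.75% of all genes were. All 6 had positive fold changes in that fit, against 50.6% of all genes. Their median log2 fold change was 0.44, against 0.0058 over all genes tested.

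Replication-independent histones were far more abundant in counts. H3-3A, H3-3B, H2AZ1 and H2AZ2, whose products replace canonical H3 and H2A outside replication, summed to 2007, 1793 and 2138 CPM in siNemp1 cells at 120 kPa, against 1553, 1405 and 1626 CPM in control cells. These sums did not overlap. Singly, H3-3A and H3-3B lay higher without overlap, as did 10.9% of all genes. H2AZ1 overlapped, and so did H2AZ2, whose mean was 92.7 CPM in siNemp1 cells against 95.2 CPM in control cells. Of 11 tested histone variant genes, 2 were called higher with the block, where 6.24% of all genes were, and 0 lower, where 2.51% were: H3-3A (0.45 ± 0.10, edgeR adjusted p = 0.020) and H3-3B (0.42 ± 0.10, edgeR adjusted p = 0.024). Their log2 fold changes lay near that of H4C3 in the same fit. Without the block 0 of the genes of these lists were called.

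Genes for making and handling histone transcripts were not called at 120 kPa. Of 29 tested genes for histone transcription and 3′ end processing, 0 were called with the block, against 8.75% of all genes. NPAT, the coactivator of histone genes, had a blocked log2 fold change of -0.34 ± 0.13 (edgeR adjusted p = 0.14), and SLBP one of 0.22 ± 0.17 (edgeR adjusted p = 0.47). Of 20 histone chaperone and acetyltransferase genes, 1 was called higher, ASF1A (0.57 ± 0.12, edgeR adjusted p = 0.018), and 1 lower, NASP (-0.46 ± 0.10, edgeR adjusted p = 0.017), both chaperones of H3 and H4. Of 20 S-phase genes, 1 was called higher, TYMS, the thymidylate synthase gene (0.46 ± 0.13, edgeR adjusted p = 0.047). Of the same list 3 were called lower: CLSPN, a replication checkpoint gene (-0.70 ± 0.12, edgeR adjusted p = 0.0097), the helicase subunit MCM4 (-0.51 ± 0.12, edgeR adjusted p = 0.022) and the proliferation marker MKI67 (-0.84 ± 0.16, edgeR adjusted p = 0.016). Of all genes 6.24% were called higher and 2.51% lower in this fit.

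Other measures also differed between the stiff-substrate libraries. The mitochondrial share of counts was 1.06%, 0.826% and 0.709% in siNemp1 cells at 120 kPa, against 1.73%, 1.40% and 0.913% in control cells, and 1.48% to 1.60% in the libraries at 10 kPa. It was lowest in the library numbered 3 of each stiff group, where the histone sum was highest. The summed level of 6 fibroblast markers was 732, 600 and 306 CPM in siNemp1 cells at 120 kPa, against 902, 875 and 682 CPM in control cells. At 120 kPa 82.7% to 89.5% of it was THY1, a surface glycoprotein (-0.73 ± 0.15 with the block, edgeR adjusted p = 0.020). Over all libraries PDGFRB was at 35.9 to 85.4 CPM, DCN at 8.87 to 22.9 CPM and PDGFRA at 5.80 to 20.6 CPM. LUM was at most 0.506 CPM and the fibroblast collagen COL1A2 at most 0.324 CPM. MKI67 was 60.9, 51.0 and 31.5 CPM in siNemp1 cells, against 91.3, 74.5 and 83.4 CPM in control cells. The part of these measures in the histone values was not tested.

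Promoters of the members, taken from RefSeq GRCh38.p14 as 250 bases before to 50 after the gene start, were available for 42 of the 45. The letters TATAAA, searched on both strands, were in 61.9% of them and in 11.5% of all 35116 promoters of that length. CCAAT was in 83.3% of the members' promoters, against 34.6% of all, and ATTTGCAT in 35.7%, against 1.77%. The families differed: CCAAT was in every H1, H2A, H2B and H3 promoter but in only 1 of 8 H4 promoters, and ATTTGCAT was in 7 of 12 H2A and 8 of 12 H2B promoters and in none of the other families. The promoters of H4C14 and H2BC21, the pair of members called in the fit of the soft-substrate libraries, are shown to compare an H4 with an H2B gene, with these motifs in capitals. They are written on each gene's own strand, H4C14 from chr1:149832407-149832706 (plus strand) and H2BC21 from chr1:149886633-149886932 (minus strand).
H4C14: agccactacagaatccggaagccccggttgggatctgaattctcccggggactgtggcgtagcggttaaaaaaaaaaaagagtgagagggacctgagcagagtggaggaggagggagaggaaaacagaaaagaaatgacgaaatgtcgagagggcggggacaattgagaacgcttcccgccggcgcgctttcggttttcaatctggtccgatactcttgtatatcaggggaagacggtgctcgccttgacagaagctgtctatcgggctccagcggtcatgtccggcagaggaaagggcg
H2BC21: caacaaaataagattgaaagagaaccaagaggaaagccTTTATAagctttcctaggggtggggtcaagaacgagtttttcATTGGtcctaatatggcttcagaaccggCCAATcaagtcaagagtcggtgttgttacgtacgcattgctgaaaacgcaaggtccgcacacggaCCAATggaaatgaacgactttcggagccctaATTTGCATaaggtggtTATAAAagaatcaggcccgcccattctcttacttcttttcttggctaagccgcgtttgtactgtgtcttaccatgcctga
The H4C14 window holds none of the 3 motifs, and it is identical to that of H4C15 in 300 of 300 bases. The H2BC21 window holds all 3, ATTTGCAT standing just before TATAAA; the capitals TTTATA and ATTGG are the opposite-strand readings of TATAAA and CCAAT. A match is a description of the letters, and no match says only that they are not in this window.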

How the data were processed

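Per the labels' protocols, total RNA of hTERT RPE-1 cells was depleted of ribosomal RNA by an RNase H method and reverse-transcribed with random hexamers. The deposited table holds one column of estimated counts per library, with gene names. Salmon 1.80, Trimmomatic 0.33, FastQC 0.11.9, edgeR and GRCh38 appear among the tools and builds of the submitters' processing notes. The annotation release and strandedness were not given. The authors' estimated counts were rounded for testing. Salmon divides reads that fit several transcripts between them, so near-identical copies were also tested as sums. Groups and replicate numbers came from the titles.

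edgeR 4.0.16 in R 4.3.3 fitted all 10 libraries with 1 mean per group, TMM scaling, filterByExpr and a robust quasi-likelihood test; Benjamini-Hochberg adjustment ran over 13990 genes, and an adjusted p under 0.05 was called. Scripts were tested on simulated data. DESeq2 1.42.0 was an alternative. Replicate numbers were treated as pairs at 120 kPa, because same-numbered libraries deviated together over all genes. The correlations were 0.426, 0.157 and 0.359 for numbers 1, 2 and 3, and 0.0171 at 10 kPa. Over the members they were 0.380, 0.109 and 0.292 at 120 kPa and -0.480 at 10 kPa. The labels do not say what the numbers share. The block was a single replicate term over all 10 libraries, so it also tied the soft-substrate libraries and the substrates, where pairing has no such basis; it left 4 residual degrees of freedom, against 6. Other alternatives were a fit of the compared groups alone, other filters and scalings, removal of length and GC trends, and leaving out each library.

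Sharing between copies was counted as 31-base stretches of GENCODE 29 transcripts found in another gene. Members were named by a rule: the 12 with the most CPM that passed the filter, each one called with or without the block, and their copies. The members, lists, rule and tests were chosen with earlier results of these data known. CPSF1, ASF1B, H2BU1, IPO4 and E2F2 of the lists were not analysed here.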

Additional observations from a re-analysis of the deposited data

Results flagged for a closer look

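In 2 of 3 members set apart here, H2AC17 and H2AC25, every siNemp1 library lay above the control libraries at 120 kPa and below them at 10 kPa, as for 0.372% of all genes tested. In the other, H2AC19, a test of the difference between the substrates passed its threshold. For H2AC17 the difference between the siNemp1 effects on the 2 substrates had an edgeR adjusted p of 1 both without and with the replicate block; the gene shares 87.1% of its 31-base stretches with another histone gene. For H2AC25 that difference had an edgeR adjusted p of 0.779 without the block and 0.554 with it, and the gene passed the filter on low counts only through siNemp1 libraries at 120 kPa, with 45 against 1 counts at 120 kPa and 1 against 9 at 10 kPa. For H2AC19 the edgeR adjusted p was 1 without the block and 0.00393 with it, and the gene was above 0 only in the 2 libraries where its copy H2AC18 was at 0.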

How the results depend on the processing

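In the main edgeR fit, with one mean per group and copies tested singly, no member was called in any of the 6 comparisons. Percentages in parentheses are the share of all genes called under the same setting, and members called include H2AC25 and H2AC19, whose calls are not read. For siNemp1 against control at 120 kPa, the count of members called was 4 with the replicate block (8.75%), 4 with the block in the stiff libraries only (9.39%), 4 with the block and length and GC trends removed (12.6%), 1 with those trends removed (0.836%), 1 with DESeq2 (6.83%), 4 with no filter on low counts (2.73%), and 0 to 2 when a library was left out (2 without control replicate 3, 4.19%). Chosen after the data were seen, the block with copies summed called 3 (8.74%), and the block without pair 1, 2 or 3 called 6 (11.2%), 0 or 1 (5.49%). For siNemp1 against control at 10 kPa it was 1 with the block (0.0286%), 1 with the block and trends removed (0.0357%), 2 in the compared groups alone (17.3%) and 2 with no filter (0.28%). For stiff against soft it was 1 (0.0143%), 1 (0.0357%) and 6 (2.25%) with the block, the block with trends removed and no filter in siNemp1 cells, and 2 with no filter in control cells (0.675%). For the difference of the siNemp1 effects it was 1 (0.0286%), 1 (0.0286%) and 3 (0.297%) under those settings, and the members' median ranged from -0.059 (without siNemp1 replicate 3 at 120 kPa) to 0.62 when a library was left out. For the average over both substrates it was 1 with the block (10.8%), 2 with the block and trends removed (14.4%), and 1 each with trends removed (2.88%), DESeq2 (11.1%), no filter (2.76%), copies summed (1.29%), and the block with copies summed (10.8%), and 0 to 1 when a library was left out (1 without control replicate 3 at 120 kPa, 4.79%). The single block calls at 10 kPa, in siNemp1 cells by substrate and in the difference were H2AC19. H4C3 reversed without siNemp1 replicate 3 at 120 kPa; leaving out a library gave -0.15 to 0.95 at 120 kPa, -0.11 to 1.01 for the difference and -0.095 to 0.44 for the average, the highest each time without control replicate 3 at 120 kPa. The cause of these changes was not tested. The other 226 values of the main results kept their side of the threshold or moved by less than the replicate spread of 0.405. That spread is close to or above the size of the medians, so a median could lose most of its size and still count here. For stiff against soft in siNemp1 cells the median was 0.53 without the block and 0.27 with it. At 10 kPa, 2 libraries a group limit precision.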

Other observations

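The siNemp1 library numbered 3 at 120 kPa was highest of all libraries for H4C3, H2AC6, H2BC4, H2BC12 and H2BC21 and lowest of all for H1-4. It also had the lowest mitochondrial share, 0.709%, and the lowest NEMP1 level, 4.11 CPM.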
